A study of Mus musculus with 36 samples.

Results

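Gene expression in the ventricles of C57BL/6 mouse embryos at embryonic day E13.5 was compared with that in ventricles at E12.5. The comparison uses 6 of the 36 arrays of a series on heart development, with 3 arrays at each age. The members were the arrays whose title gives E13.5 or E12.5 with a replicate number of 1, 2 or 3 and no letter A, which marks atria, and whose source is both ventricles. All 6 samples are total RNA of embryos from timed matings, with the ventricles cut away from the atria, and the labels name no allele, agent or sorted cell type. They do not say whether an array holds 1 embryo, pooled embryos or separate litters, so that a p-value here reflects the scatter of these samples, which may be technical. The question is which genes differ in the ventricle over this day, when the chambers and the outflow tract are being divided.

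Between these ages the ventricular wall of the mouse embryo is known to thicken as its compact layer grows under the trabeculae. A first plexus of coronary vessels spreads through the wall, and cells from the epicardium enter it and become fibroblasts and mural cells. In the blood, definitive red cells made in the fetal liver begin to replace the primitive red cells of the yolk sac, which carry embryonic globins. Heart muscle later moves from glucose and lactate toward fatty acids as fuel.

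Each value is a deposited intensity of an Affymetrix probe set on a linear scale. The 2% trimmed mean was 500.0 on each of the 6 arrays. The highest value of an array lay between 14965 and 16775 at E13.5, and was 16547, 15614 and 21868 at E12.5 (arrays 1, 2 and 3). The 3' to 5' log2 ratio of the actin control lay between 0.304 and 0.346 at E13.5 and between 0.256 and 0.461 at E12.5. Of 45037 probe sets that are not controls, 27256 passed the filter on low values, and they measured 12983 genes, each by its brightest probe set. Values below are given in the order of arrays 1, 2 and 3, and log2 differences are E13.5 minus E12.5 on log2(intensity + 17), a scale that understates the change of dim genes. The ± is the standard error (SE) of a limma fit that pools the spread of all 12 groups.

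E12.5 array 2 went against its label. Over the 27256 probe sets its Pearson r was 0.978, 0.982 and 0.980 with the E13.5 arrays, and 0.967 and 0.952 with E12.5 arrays 1 and 3. The 3 pairs of E13.5 arrays had r from 0.974 to 0.981, so that this array lay as near to them as they lay to each other. E12.5 arrays 1 and 3 had an r of 0.969 with each other and mean r of 0.960 and 0.947 with the E13.5 arrays. No source used here says that the array was mislabelled, and the cause was not tested. Where a gene has a pair of log2 differences joined by "and", the first is with all 6 arrays and the second without E12.5 array 2, and an adjusted p that follows the pair belongs to the second.

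**Figure D1:**
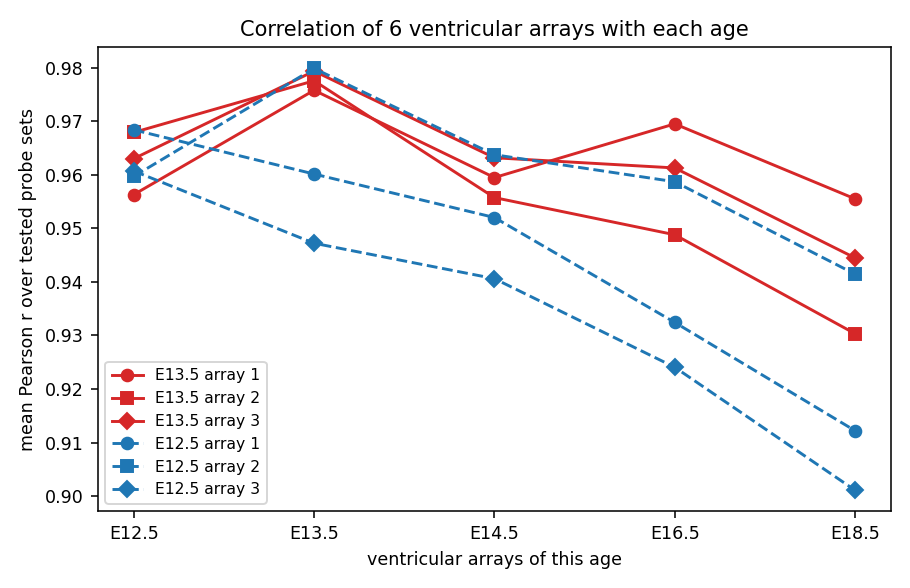
Mean Pearson r over 27256 probe sets of each of the 6 arrays (lines; red E13.5, dashed blue E12.5, marker by replicate number) with the ventricular arrays of each age (x axis), itself left out. E12.5 array 2 has its highest mean r, 0.980, with E13.5, while E12.5 arrays 1 and 3 have theirs, 0.968 and 0.961, with E12.5. Ages are those of the titles, and the arrays titled E16.5 are described as day 15.5.

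With all 6 arrays, limma called 0 of 27256 probe sets (0%) at an adjusted p below 0.05, and 3550 (13%) had an unadjusted p below 0.05. Without E12.5 array 2 it called 1003 probe sets (3.68%), 685 higher (2.51%) and 318 lower (1.17%) at E13.5. By gene, 573 of 12983 were called (4.41%), 397 higher (3.06%) and 176 lower (1.36%), and 84 and 49 of these differed at least 2-fold. The array was left out because it resembled the E13.5 arrays, so these p-values are smaller than a choice made without looking would give. They also rest on few samples: leaving out a second array gave 14 calls without E12.5 array 3, 178 without E13.5 array 1, 302 without E13.5 array 3, 769 without E12.5 array 1 and 913 without E13.5 array 2. With all 36 arrays weighted by their spread (arrayWeights in limma), the 6-array comparison gave 2508 calls, 1317 higher and 1191 lower. In that fit E12.5 arrays 1, 2 and 3 had weights of 2.38, 0.582 and 0.516. Of all genes, 1018 (7.84%) were higher and 1222 (9.41%) lower at E13.5 with no overlap between the 3 arrays of each age. With 6 arrays, 6121 genes had a positive and 6862 a negative difference. At an unadjusted p below 0.05 in that limma fit, 992 genes (7.64%) were higher and 830 (6.39%) lower. The counts given for gene lists below stand beside these shares of all genes. An exact permutation test of 3 arrays against 3 cannot go below p = 0.1. In what follows, "called" means an adjusted p below 0.05 without E12.5 array 2. None of these calls was made in the main fit with all 6 arrays, which had no array weights.

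The atria of the same ages are 6 other arrays, numbered 1 to 3 like the ventricular ones, and no source used here says whether the chambers of 1 embryo were used for both. Deviations from the group means had r from -0.34 to 0.02 between ventricular and atrial arrays of the same age and number, and up to 0.31 between arrays of different numbers. E12.5 ventricular array 2 had its highest r, 0.30, with E12.5 atrial array 3. The atrial values are therefore not shown to be independent of the calls. Of the 397 genes called higher in ventricles, 340 (85.6%) also had an atrial log2 difference above 0, beside 56.6% of all 12983 genes. At an unadjusted p below 0.05, 72 of them (18.1%) were higher in E13.5 atria and 0 lower, beside 7% of all genes higher. Of the 176 genes called lower, 109 (61.9%) had an atrial difference below 0, beside 43.4% of all genes, and 29 were lower in atria at an unadjusted p below 0.05, beside 6.28%; 2 were higher. The median atrial log2 difference was 0.15 for the genes called higher and -0.07 for those called lower, against medians of 0.64 and -0.72 in ventricles without E12.5 array 2.

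**Figure D2:**
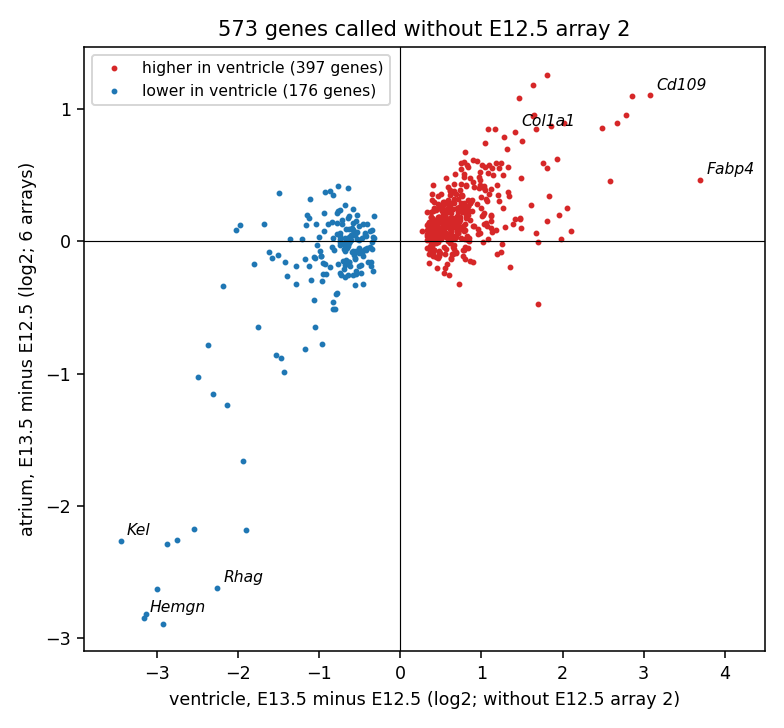
Log2 difference, E13.5 minus E12.5, in ventricles without E12.5 array 2 (x axis) and in atria with 6 arrays (y axis), for the 573 genes called in ventricles, 1 point a gene. Of the 397 genes on the right, 340 lie above 0 on the y axis, and of the 176 on the left, 109 lie below it, among them red cell genes such as Kel and Rhag.

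The genes of ventricular muscle given here lay well above the overall median intensity of 171.8 on all 6 arrays. They cannot show how much atrial tissue a sample held, and some atrial genes, given below, were higher on E12.5 arrays 1 and 3. Irx4, a transcription factor of ventricular muscle, had intensities of 1891, 1964 and 1675 at E13.5, against 1791, 1878 and 1737 at E12.5. All 6 values lay close together and the ages overlapped, with a log2 difference of 0.03 ± 0.82 with all arrays and 0.06 without E12.5 array 2. The ventricular myosin light chain gene Myl2 had 16775, 15815 and 14554 at E13.5, against 15419, 15352 and 20417 at E12.5 (-0.11 ± 0.77 and -0.18), and the slow heavy chain gene Myh7 had 16281, 15059.5 and 13879.7 at E13.5, against 15812, 15291 and 21868 at E12.5 (-0.21 ± 0.57 and -0.31). Both stood at or near the top of each array's range, which limits what their differences can show. The SEs of these genes pool all 12 groups, and Irx4 ran from 17.3 to 49.2 on the 3 atrial arrays of E13.5 and from 14.3 to 433 on those of E12.5. Nkx2-5, the early heart muscle factor, had a difference of 0.08 with all arrays and 0.17 without E12.5 array 2. The atrial natriuretic peptide gene Nppa had 11450.4, 12754 and 12722 at E13.5, against 14118, 12559 and 16409 at E12.5 (-0.22 and -0.31). Neither passed the test. Hey2, a Notch-responsive repressor of the compact wall, had 2015, 2109.6 and 2793 at E13.5, against 1635, 1992 and 1263 at E12.5, with no overlap between ages (0.51 ± 0.55 with all 6 arrays (adjusted p = 0.722) and 0.66 ± 0.62 without E12.5 array 2 (adjusted p = 0.576)).

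The genes of contractile filaments stood slightly lower at E13.5. Of 26 sarcomere genes, all measured, 24 had a negative log2 difference with 6 arrays, but limma called 0 of them, with 0 higher and 2 lower at an unadjusted p below 0.05 (7.64% and 6.39% of all genes). The list's median was -0.19 with all arrays and -0.29 without E12.5 array 2, beside -0.01 and -0.02 over all genes. Under quantile normalization it was -0.06, and without E12.5 array 3 -0.06. The 2 members called, both lower, were Myl1 and Mybphl (1.36% of all genes were called lower). Myl1, the alkali light chain of fast skeletal muscle and of embryonic heart, had 949.8, 1724 and 878 at E13.5, against 3414, 1198 and 3611 at E12.5. Arrays 1 and 3 of E12.5 stood above the other 4, and the log2 difference was -1.11 ± 0.41 with all 6 arrays (adjusted p = 0.261) and -1.62 ± 0.42 without E12.5 array 2 (adjusted p = 0.0275). In atria the means of Myl1 were higher, 9582 at E13.5 and 10169.5 at E12.5. Mybphl, a myosin binding protein gene enriched in atria, had 119, 205 and 149 at E13.5, against 493, 189.5 and 445 at E12.5, with the same 2 arrays high (-1.09 ± 0.37 with all 6 arrays (adjusted p = 0.235) and -1.50 ± 0.38 without E12.5 array 2 (adjusted p = 0.026)).

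Markers of the inner, trabecular layer and of the compact layer had few calls. Over all 12983 genes, 6862 had a negative difference with 6 arrays, and 7.64% were higher and 6.39% lower at an unadjusted p below 0.05. Of all genes, 3.06% were called higher and 1.36% lower. Of 13 measured trabecular genes (of 15), 10 had a negative difference with 6 arrays, 0 were higher and 3 lower at an unadjusted p below 0.05, and the median was -0.22 with all arrays and -0.31 without E12.5 array 2. The 2 called were lower: Sema3a, a guidance cue, with 558, 718 and 625 at E13.5, against 1003, 757 and 910.5 at E12.5 and no overlap between ages (-0.48 with all arrays, -0.59 ± 0.16 without E12.5 array 2, adjusted p = 0.0367), and Cpne5, a calcium-dependent membrane-binding protein (-0.34 and -0.46 ± 0.12, adjusted p = 0.0309). The compact list, 15 genes all measured, had a median of 0.04 with all arrays and -0.04 without E12.5 array 2, with 1 higher and 3 lower at an unadjusted p below 0.05 in the 6-array limma fit and 1 called member. That member was Tbx20, a T-box factor, which was higher (0.33 and 0.45 ± 0.12, adjusted p = 0.0316), while its other 2 probe sets had differences of -0.13 and -0.02 with 6 arrays. The difference between the lists was not tested. The peptide gene Nppb and the secreted factor gene Bmp10, both trabecular, were not called (Nppb -0.34 and -0.42, Bmp10 -0.47 and -0.58), although all 3 values of Bmp10 at E13.5 (390.3, 594 and 559.8) lay below all 3 at E12.5 (856, 604 and 682).

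Red cell genes had the largest negative differences. Kel, which encodes the Kell blood group endopeptidase of the red cell surface, had intensities of 109.5, 199 and 152 at E13.5, against 1410.2, 174 and 2320.2 at E12.5. E12.5 arrays 1 and 3 stood far above the other 4 arrays, and E12.5 array 2 lay among the E13.5 values. The log2 difference was -2.37 ± 0.73 with all 6 arrays (adjusted p = 0.205) and -3.45 ± 0.70 without E12.5 array 2 (adjusted p = 0.00854), or 11-fold lower without that array. Ermap, a red cell adhesion protein, had 148, 219.6 and 166 at E13.5, against 1220.4, 157 and 1913 at E12.5 (-1.96 ± 0.73 with all 6 arrays (adjusted p = 0.262) and -3.00 ± 0.70 without E12.5 array 2 (adjusted p = 0.0182)). Hemgn, a nuclear regulator of red cell development known as hemogen, had 76.9, 65.8 and 116 at E13.5, against 339.7, 60.6 and 2290.5 at E12.5 (-1.98 ± 0.82 with all 6 arrays (adjusted p = 0.309) and -3.17 ± 0.79 without E12.5 array 2 (adjusted p = 0.0235)), with E12.5 array 3 highest by far. In bulk tissue, fewer red cells and less of these RNAs per red cell cannot be told apart.

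The sequences upstream of these 3 genes are shown because GATA1, which binds sites that hold the letters GATA, is a main activator of red cell genes. They are the 250 bases before the RefSeq transcription start in the GRCm38.p6 build, all on the minus strand, 5' to 3', with matches to AGATAA or TGATAA on either strand in capitals.
Kel (chr6:41704326-41704575): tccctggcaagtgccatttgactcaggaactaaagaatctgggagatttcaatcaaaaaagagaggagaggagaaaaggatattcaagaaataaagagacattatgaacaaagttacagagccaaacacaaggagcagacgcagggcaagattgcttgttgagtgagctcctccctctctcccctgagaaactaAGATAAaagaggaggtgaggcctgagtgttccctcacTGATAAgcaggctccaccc
Ermap (chr4:119189996-119190245): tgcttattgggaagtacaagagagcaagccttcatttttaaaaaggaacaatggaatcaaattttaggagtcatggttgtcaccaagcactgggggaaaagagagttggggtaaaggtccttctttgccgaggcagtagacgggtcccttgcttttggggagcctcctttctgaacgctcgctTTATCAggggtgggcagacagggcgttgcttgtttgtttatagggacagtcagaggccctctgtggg
Hemgn (chr4:46404184-46404433): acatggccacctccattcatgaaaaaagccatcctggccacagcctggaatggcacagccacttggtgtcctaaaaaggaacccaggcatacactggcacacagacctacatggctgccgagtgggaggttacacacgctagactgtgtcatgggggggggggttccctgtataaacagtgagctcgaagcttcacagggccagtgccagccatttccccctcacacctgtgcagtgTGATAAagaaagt

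Kel held 2 matches, 56 and 19 bases before the start, Ermap held 1 at 67 bases, on the opposite strand, and Hemgn held 1 at 13 bases. Among all 32851 RefSeq promoters of the same length, 16.6% held a match. Of the 28 red cell genes listed, 17 had a RefSeq promoter entry, 20 entries in all, and 12 of the 20 held a match. For CCACCC, the core of the site of the red cell factor KLF1, 11 of the 20 held a match on either strand, beside 28.1% of all promoters. These matches are letters in a window, and no binding was measured.

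Of the 28 listed red cell genes, 18 were measured, and 17 of these had a negative difference with 6 arrays. The median was -1.08 with all arrays and -1.79 without E12.5 array 2. Limma called 0 members with 6 arrays, with 8 lower at an unadjusted p below 0.05 (6.39% of all genes). With no overlap between the 3 arrays of each age, 0 of the 18 were lower and 1 higher at E13.5 (9.41% and 7.84% of all genes). Without E12.5 array 2, limma called 9 lower (1.36% of all genes). Besides Kel and Ermap these were Epb42 (band 4.2 protein, -1.68 and -2.89), Nfe2 (a globin gene activator, -1.88 and -2.76), Slc4a1 (the band 3 anion exchanger, -1.53 and -2.50), Car2 (carbonic anhydrase 2, -1.55 and -2.32), the Rh protein genes Rhag (-1.24 and -2.26) and Rhd (-1.15 and -1.90), and Trim10 (a RING finger protein of red cell maturation, -1.41 and -2.14). Car2, for example, had 944, 1352 and 938 at E13.5, against 3770.3, 1084 and 7603 at E12.5. The regulators Gata1 (-0.70 and -1.11, adjusted p = 0.192) and Klf1 (-1.02 and -1.69, adjusted p = 0.137) were not called. The mean log2 level of the 18 genes, relative to their mean over 36 arrays, was -0.79, -0.53 and -0.82 at E13.5, against 0.66, -0.95 and 1.12 at E12.5, so that E12.5 array 2 was the lowest of the 6. In atria the list's median difference was -1.29, with 11 of 18 lower and 0 higher at an unadjusted p below 0.05 (6.28% and 7% of all genes). There E12.5 array 3 was the low array of its age, at 0.50 against 2.95 and 2.14 on arrays 1 and 2, with 0.90, 0.61 and 0.17 at E13.5.

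The brightest probe set of each measured embryonic globin gene did not pass the test. Hbb-bh1, the beta-h1 globin of primitive red cells, had 39.4, 3526 and 1151 at E13.5, against 11009.9, 554 and 18602 at E12.5, spread over more than an order of magnitude within each age, and the ages overlapped. The log2 difference of this probe set, its brightest, was -2.99 ± 1.30 with all 6 arrays (adjusted p = 0.331) and -4.54 ± 1.33 without E12.5 array 2 (adjusted p = 0.0508). Its other 2 probe sets passed without E12.5 array 2, with -3.28 and -4.78 (adjusted p = 0.0343) and with -2.75 and -4.44 (adjusted p = 0.0407). The zeta globin gene Hba-x had 3221, 12143 and 8948 at E13.5, against 12975, 8222 and 17079.7 at E12.5 (-0.79 ± 0.50 with all 6 arrays (adjusted p = 0.503) and -1.08 ± 0.56 without E12.5 array 2 (adjusted p = 0.27)), with E13.5 array 1 the lowest of all. Hbb-y, the epsilon-y globin gene, had 10965, 13618 and 12522 at E13.5, against 14169, 14316 and 18637 at E12.5. Each E13.5 value lay below each E12.5 value, and the difference did not pass (-0.34 ± 0.36 with all 6 arrays (adjusted p = 0.718) and -0.40 ± 0.41 without E12.5 array 2 (adjusted p = 0.616)). Globin genes are alike in sequence and several probe sets are annotated to more than 1 of them: those shared by the adult alpha globins Hba-a1 and Hba-a2 differed by 0.16, -0.40 and -0.30, and 1 shared by the adult beta globins by -0.39.

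Other genes known from blood cells were called lower, and Kcnn4 and Acp5 were among the 15 largest negative calls. Kcnn4, the Gardos potassium channel of red cells, had 18.4, 11.1 and 21.7 at E13.5, against 208, 26.9 and 376 at E12.5, with no overlap between ages (-2.22 ± 0.71 with all 6 arrays (adjusted p = 0.216) and -3.14 ± 0.70 without E12.5 array 2 (adjusted p = 0.0146)). At E13.5 it lay below the filter level of 171.8. Acp5, a tartrate-resistant acid phosphatase of macrophages and bone-resorbing cells, had 92.5, 125 and 92 at E13.5, against 584, 55.6 and 1344 at E12.5 (-1.71 and -2.92 ± 0.74, adjusted p = 0.0252). Treml1, a receptor of platelets and megakaryocytes, had 203, 252 and 257 at E13.5, against 514, 323 and 516 at E12.5, with no overlap (-0.86 and -1.07 ± 0.31, adjusted p = 0.0463).

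**Figure D3:**
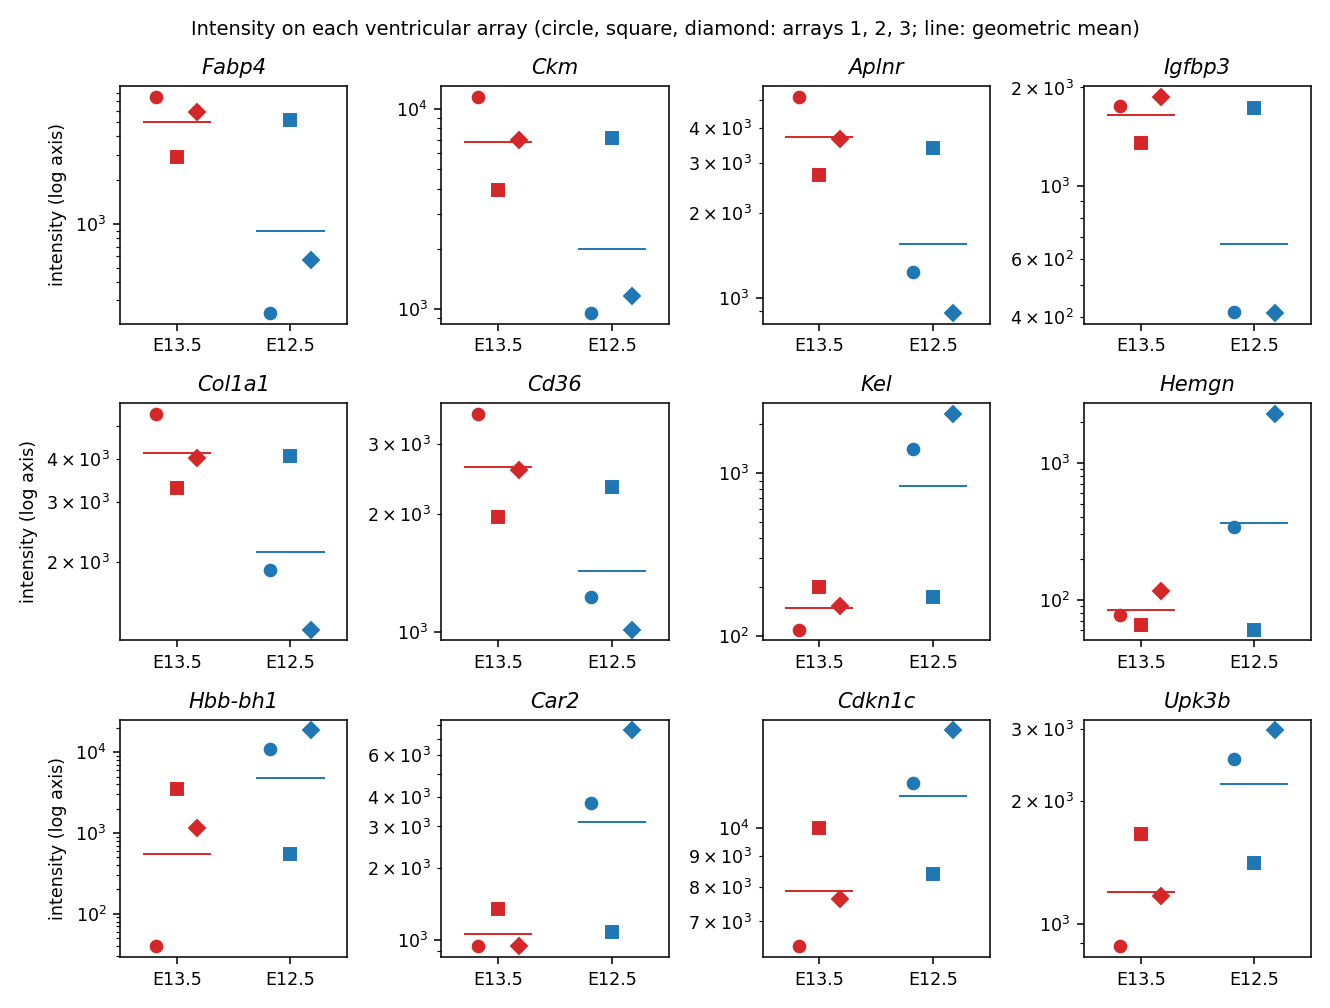
Intensity of 12 genes on each ventricular array (log axis), E13.5 left in red and E12.5 right in blue, with circles, squares and diamonds for arrays 1, 2 and 3 and a line at the geometric mean. In each panel E12.5 array 2 stands apart from E12.5 arrays 1 and 3 and nearer to the E13.5 arrays, as for Fabp4 with 5156 against 245.2 and 562 at E12.5.

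The largest positive difference of a called gene was that of Fabp4, a member of the coronary and capillary list. Fabp4, a fatty acid binding protein of capillary endothelium and fat cells, had intensities of 7517, 2894 and 5941 at E13.5, against 245, 5156 and 562 at E12.5. The E13.5 values and E12.5 array 2 stood well above the other 2 arrays. The log2 difference was 2.46 ± 0.76 with all 6 arrays (adjusted p = 0.204) and 3.70 ± 0.69 without E12.5 array 2 (adjusted p = 0.00425), or 13-fold higher without that array. Of its 4 tested probe sets, the other 3 had differences of 3.78, 2.02 and 0.09 without E12.5 array 2. Aplnr, the apelin receptor found on sprouting coronary endothelium, had 5152, 2718 and 3658 at E13.5, against 1235, 3378 and 884 at E12.5, with E12.5 arrays 1 and 3 lowest (1.25 ± 0.36 with all 6 arrays (adjusted p = 0.183) and 1.81 ± 0.34 without E12.5 array 2 (adjusted p = 0.00403)). Cxcr4, the receptor for CXCL12 that guides coronary assembly, had 461, 269 and 456 at E13.5, against 96, 306 and 163 at E12.5 (1.10 ± 0.39 with all 6 arrays (adjusted p = 0.255) and 1.49 ± 0.42 without E12.5 array 2 (adjusted p = 0.0406)).

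Of 23 measured coronary and capillary genes (of 25), 5 were called higher and 3 lower (3.06% and 1.36% of all genes). At an unadjusted p below 0.05 with 6 arrays, 10 were higher and 2 lower (7.64% and 6.39% of all genes). The list's median was 0.25 with all arrays and 0.38 without E12.5 array 2. Higher besides Fabp4, Aplnr and Cxcr4 were Cd36, a fatty acid uptake receptor (0.87 and 1.22 ± 0.23), and Tcf15, a helix-loop-helix factor of heart endothelium (0.68 and 0.83 ± 0.20). Lower were Slc2a1, a glucose transporter (-0.43 and -0.64 ± 0.16), Gja4, the arterial connexin 37 gene (-0.35 and -0.68 ± 0.19), and Car4, a membrane-bound carbonic anhydrase (-0.83 and -1.13 ± 0.31), so that the list did not move 1 way. The broader list of endothelium and endocardium, 29 genes all measured, had medians of 0.03 with all arrays and 0.10 without E12.5 array 2. In it the ETS factor gene Fli1 was called higher (1201, 984 and 1354 at E13.5, against 744, 1212 and 608 at E12.5; 0.51 and 0.78 ± 0.21, adjusted p = 0.0319), and Vwf, von Willebrand factor, lower (526, 334 and 386 at E13.5, against 756, 393 and 884 at E12.5; -0.63 and -0.97 ± 0.18, adjusted p = 0.00381). General endothelial genes were not called, as for Cdh5, VE-cadherin (0.17 and 0.28), and Pecam1 (0.22 and 0.31). Kdr, a VEGF receptor, had 1695, 1690.3 and 1546 at E13.5, against 1966, 1745 and 1973 at E12.5 (-0.20 and -0.26 ± 0.11, adjusted p = 0.155).

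Matrix genes of fibroblasts stood higher at E13.5. Col1a1, the alpha-1 chain of type I collagen, had 5429, 3292 and 4029 at E13.5, against 1892, 4075 and 1270.1 at E12.5. E12.5 arrays 1 and 3 were below the other 4, and the log2 difference was 0.95 ± 0.31 with all 6 arrays (adjusted p = 0.223) and 1.41 ± 0.29 without E12.5 array 2 (adjusted p = 0.00975). The other tested probe set of Col1a1 differed by 0.13 with all arrays and 0.34 without E12.5 array 2. Decorin, Dcn, a small proteoglycan that binds collagen fibrils, had 5546, 3366 and 4339.9 at E13.5, against 1939, 3951 and 1844 at E12.5 (0.83 ± 0.23 with all 6 arrays (adjusted p = 0.179) and 1.19 ± 0.21 without E12.5 array 2 (adjusted p = 0.0034)). Also called were Tnc, the matrix glycoprotein tenascin-C (0.84 with 6 arrays, 1.14 ± 0.31 without E12.5 array 2), and Col6a1, a type VI collagen chain (0.63 and 0.85 ± 0.22).

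Of 32 measured fibroblast and matrix genes (of 35), 28 had a positive difference with 6 arrays, beside 6121 of all 12983 genes. At an unadjusted p below 0.05, 13 of the 32 were higher and 1 lower (7.64% and 6.39% of all genes). Of the 32, 4 were called higher and 0 lower (3.06% and 1.36% of all genes). Their median was 0.31 with all arrays, 0.47 without E12.5 array 2 and 0.45 in atria. There 15 were higher and 0 lower at an unadjusted p below 0.05 (7% and 6.28% of all genes). Pdgfra, the receptor that marks fibroblasts, had 1715, 1454 and 1517 at E13.5, against 793, 741 and 788 at E12.5. All 3 E13.5 values were above all 3 at E12.5, and here E12.5 array 2 matched its own age, but neither fit called it (0.99 ± 0.29, adjusted p = 0.187; 0.96 ± 0.33, adjusted p = 0.0931). Its sister gene Pdgfrb, a marker of pericytes, had 1273, 738 and 1063 at E13.5, against 649, 689 and 480.4 at E12.5, also with no overlap and with array 2 on the side of its own age, and was called (0.72 ± 0.18 with all arrays, adjusted p = 0.179; 0.82 ± 0.21 without E12.5 array 2, adjusted p = 0.0236). Of 15 measured basement membrane genes (of 16), 3 were called, all higher (3.06% of all genes were called higher). They were Col15a1 (0.87 and 1.27), the laminin chain gene Lama2 (0.60 and 0.90) and Lamb1 (0.30 and 0.42). The list median was -0.00 with all arrays and -0.02 without E12.5 array 2.

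Epicardial genes, which mark the surface layer that gives rise to fibroblasts and mural cells, leaned lower. Upk3b, a uroplakin of the mesothelium, had 883, 1661 and 1174 at E13.5, against 2525, 1409.5 and 2974 at E12.5, with E12.5 arrays 1 and 3 highest (-0.86 ± 0.24 with all 6 arrays (adjusted p = 0.179) and -1.18 ± 0.24 without E12.5 array 2 (adjusted p = 0.00931)). Of 20 measured members (of 22), 15 had a negative difference with 6 arrays, beside 6862 of all 12983 genes. At an unadjusted p below 0.05, 4 of the 20 were lower and 0 higher (6.39% and 7.64% of all genes). Upk3b alone was called, and 1.36% of all genes were called lower. The median was -0.20 with all arrays and -0.31 without E12.5 array 2. The epicardial factor gene Wt1 had 533, 619 and 613 at E13.5, against 569.5, 622 and 481 at E12.5 (0.08 ± 0.16 and 0.16), and Tbx18 (0.07 and 0.03) and Tcf21 (0.09 and 0.10) differed as little. Atrial genes leaned lower as well: 14 of 19 measured were negative with 6 arrays, and Mybphl and Dkk3, a secreted protein of the Dickkopf family (489, 876 and 680.2 at E13.5, against 1407, 633 and 1502 at E12.5; -0.72 and -1.11 ± 0.25, adjusted p = 0.013), were called lower. The mean log2 level of the atrial list was -1.02, -1.14 and -1.24 at E13.5, against -0.52, -1.26 and -0.92 at E12.5, so E12.5 arrays 1 and 3 were the highest of the 6. Upk3b too was brighter in atria, with means of 4531 at E13.5 and 4953 at E12.5. What atrial tissue contributes to the differences of these and other genes was not tested.

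Leukocyte genes were among the higher ones. C1qa, a complement chain made by macrophages, had 322, 228 and 235 at E13.5, against 96, 245 and 24.2 at E12.5, and E12.5 arrays 1 and 3 lay below the other 4 (1.37 ± 0.41 with all 6 arrays (adjusted p = 0.187) and 2.01 ± 0.37 without E12.5 array 2 (adjusted p = 0.00403)). Of 22 measured members (of 24), 4 were called higher and 0 lower (3.06% and 1.36% of all genes). At an unadjusted p below 0.05 with 6 arrays, 7 were higher and 1 lower (7.64% and 6.39% of all genes). The other 3 called were Ctss, the protease cathepsin S (0.65 and 1.04), Coro1a, an actin regulator of leukocytes (0.52 and 0.81), and Ptprc, the CD45 antigen (0.57 and 0.75). The macrophage receptor gene Csf1r was not called (0.32 and 0.49 ± 0.22, adjusted p = 0.211). The median was 0.24 with all arrays, 0.34 without E12.5 array 2 and 0.31 in atria.

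Markers of neighbouring organs were uneven between arrays of the same age. Alpha-fetoprotein, Afp, had 25.5, 71.2 and 2134 at E13.5, against 805, 15.8 and 60.7 at E12.5, and its summed level with 7 other measured liver genes (of 15 listed) was 538, 705 and 3352 at E13.5, against 1959.7, 724 and 850.4 at E12.5. E13.5 array 3 and E12.5 array 1 were thus the high ones, and limma called 0 of the 8, with 0 at an unadjusted p below 0.05. The 11 measured foregut and lung genes (of 12) summed to 3919, 4638 and 5697 at E13.5, against 4757, 4652 and 5815 at E12.5. Of these, 0 were called and 1 was lower at an unadjusted p below 0.05 (6.39% of all genes). The red cell genes above were high on E12.5 arrays 1 and 3, where the liver genes summed to 1959.7 and 850.4. What liver tissue contributes to the differences of red cell genes was not tested.

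**Figure D4:**
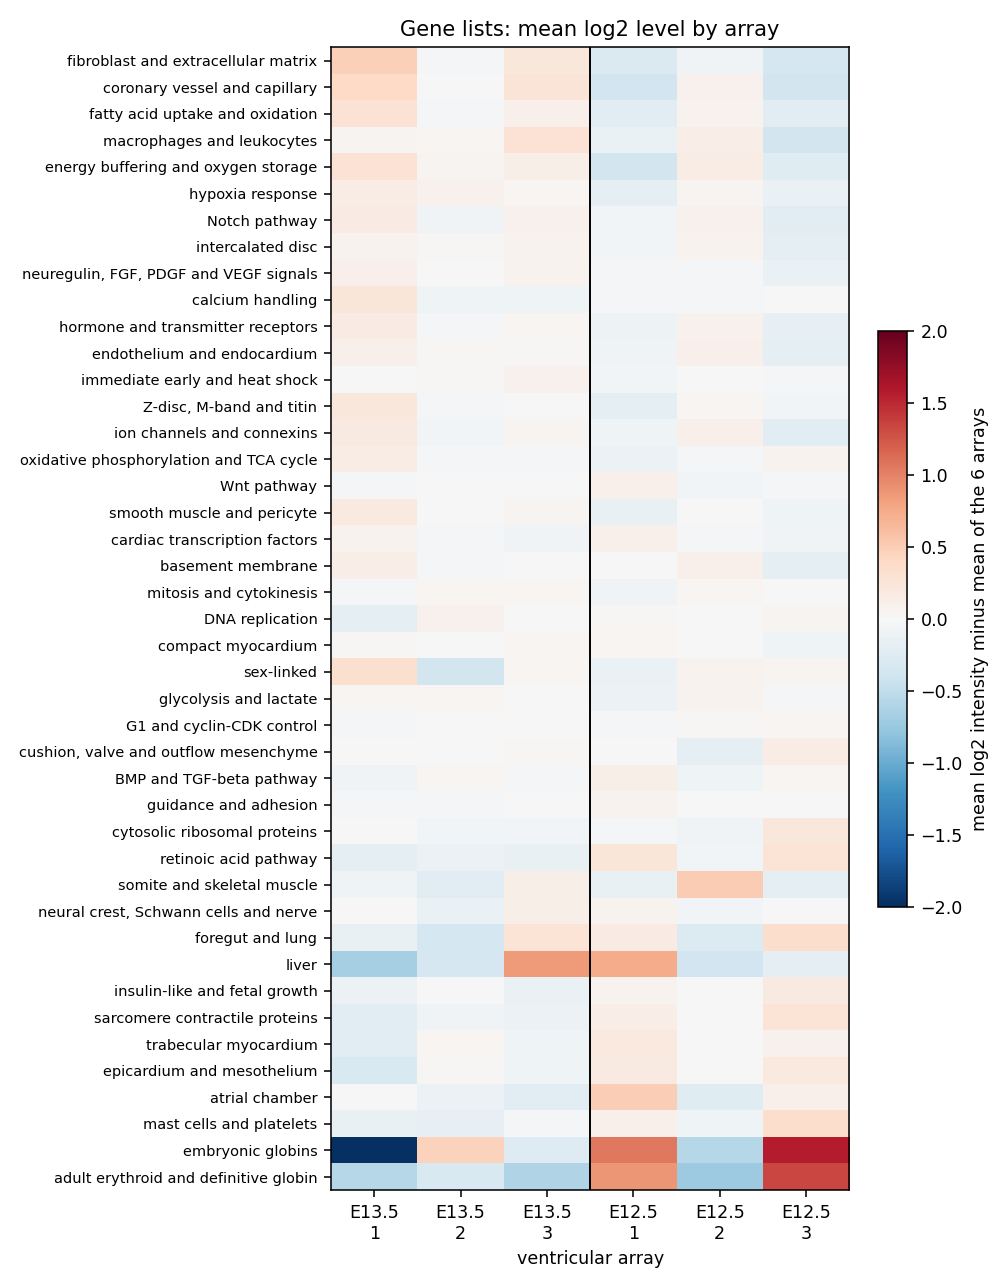
Mean log2 intensity of the measured genes of 43 lists (rows, ordered by median difference without E12.5 array 2) on each ventricular array (columns, E13.5 left of E12.5), minus the mean of the 6 arrays; colours stop at 2 either way. Matrix, coronary and fatty acid lists are at the top and red cell lists at the bottom, where E12.5 array 2 is below the mean while E12.5 arrays 1 and 3 are above it.

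Among genes of fuel use, those of fatty acid uptake and oxidation stood higher. Cd36 had 3588, 1960.1 and 2583 at E13.5, against 1229.5, 2331 and 1016 at E12.5, with E12.5 arrays 1 and 3 lowest (0.87 ± 0.24 with all 6 arrays (adjusted p = 0.179) and 1.22 ± 0.23 without E12.5 array 2 (adjusted p = 0.0046)). Ppargc1a, the coactivator PGC-1 alpha that drives mitochondrial gene programs, had 2666, 2351 and 2246 at E13.5, against 1641, 2131 and 1513 at E12.5. Its ages did not overlap, with E12.5 array 2 nearest to the E13.5 values (0.47 ± 0.13 with all 6 arrays (adjusted p = 0.18) and 0.61 ± 0.14 without E12.5 array 2 (adjusted p = 0.0151)). Hadhb, a subunit of the mitochondrial trifunctional protein, had 7038, 6784 and 7127 at E13.5, against 5159, 6741 and 4931 at E12.5, again without overlap (0.33 ± 0.11 with all 6 arrays (adjusted p = 0.24) and 0.47 ± 0.11 without E12.5 array 2 (adjusted p = 0.022)). Slc25a20, the carnitine-acylcarnitine carrier, did so too (0.64 with 6 arrays, 0.85 ± 0.23 without E12.5 array 2, adjusted p = 0.0394), and the enoyl-CoA isomerase gene Eci2 was the last of the 5 called (0.30 and 0.37 ± 0.10, adjusted p = 0.028).

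Of 29 measured genes of this list (of 33), 25 had a positive difference with 6 arrays, beside 6121 of all 12983 genes. At an unadjusted p below 0.05, 11 of the 29 were higher and 0 lower (7.64% and 6.39% of all genes). Of the 29, 5 were called higher and 0 lower (3.06% and 1.36% of all genes). The median was 0.24 with all arrays, 0.37 without E12.5 array 2 and 0.09 in atria. The muscle fatty acid binding protein gene Fabp3 had 11239.9, 8809.9 and 9484 at E13.5, against 6245, 9379 and 6749 at E12.5 and did not pass (0.42 and 0.59 ± 0.25, adjusted p = 0.167), nor did the dehydrogenase gene Acadm (0.32 and 0.43 ± 0.16, adjusted p = 0.111). Subunits of oxidative phosphorylation and TCA cycle enzymes, 49 measured of 52, had a median of 0.02 with all arrays and 0.02 without E12.5 array 2, with 26 positive and 23 negative and none called in either fit, and 4 were higher and 0 lower at an unadjusted p below 0.05.

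Energy buffering included a large difference. Ckm, muscle creatine kinase, which keeps ATP supplied to filaments and pumps, had 11546, 3951 and 6977 at E13.5, against 956, 7152 and 1163 at E12.5. E12.5 arrays 1 and 3 stood far below the other 4 (1.76 ± 0.76 with all 6 arrays (adjusted p = 0.328) and 2.68 ± 0.78 without E12.5 array 2 (adjusted p = 0.0489)). The other tested probe set of Ckm differed by only 0.18 with all arrays and 0.16 without E12.5 array 2. Myoglobin, Mb, an oxygen store, had 10839.9, 8369 and 10086 at E13.5, against 4031, 9643 and 4561 at E12.5 in the same order, and was not called (0.79 ± 0.73, adjusted p = 0.665; 1.18 ± 0.81, adjusted p = 0.423). The mitochondrial adenylate kinase gene Ak3 was called higher (0.32 with 6 arrays and 0.47 ± 0.12 without E12.5 array 2). In glycolysis, 3 of 25 measured genes (of 28) were called higher and 1 lower (3.06% and 1.36% of all genes). Higher were the brain-type aldolase gene Aldoc (1291, 1074 and 1404 at E13.5, against 548, 1242 and 456 at E12.5; 0.86 and 1.29 ± 0.21, adjusted p = 0.0025), Slc2a4, the insulin-responsive glucose transporter GLUT4 (999, 821 and 779 at E13.5, against 576, 871 and 394 at E12.5; 0.55 and 0.83 ± 0.18, adjusted p = 0.0115), and Pdk1, a kinase that turns off pyruvate dehydrogenase (0.42 and 0.60 ± 0.12, adjusted p = 0.00975). Slc2a1, the glucose transporter GLUT1, was lower (3369, 4967 and 4636 at E13.5, against 5558, 4272 and 7995 at E12.5; -0.43 and -0.64 ± 0.16, adjusted p = 0.0223). The 2 transporters thus had opposite signs.

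Hypoxia-responsive genes split in the same way. Of 21 measured (of 22), 2 were called higher and 2 lower (3.06% and 1.36% of all genes). Higher were Pdk1 and Ddit4, an inhibitor of mTOR signalling (0.37 and 0.57 ± 0.15). Lower were Slc2a1 and P4ha2, a collagen prolyl hydroxylase subunit (-0.40 and -0.54 ± 0.15). Bhlhe40, a repressor of the clock that hypoxia induces, was not on that list and had 873, 639.5 and 720.1 at E13.5, against 294, 579 and 123 at E12.5, with no overlap between ages (1.35 ± 0.47 with all 6 arrays (adjusted p = 0.244) and 1.85 ± 0.49 without E12.5 array 2 (adjusted p = 0.0312)).

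Calcium handling genes were led by Casq2, the calcium-binding protein calsequestrin of the sarcoplasmic reticulum, with 7547, 4616 and 5898 at E13.5, against 2434, 5694 and 2426 at E12.5 (0.87 ± 0.31 with all 6 arrays (adjusted p = 0.255) and 1.27 ± 0.31 without E12.5 array 2 (adjusted p = 0.0207)). Of 20 measured members (of 22), 3 were called higher and 0 lower (3.06% and 1.36% of all genes). The others called were Camk2d, a calcium/calmodulin kinase (0.40 and 0.59 ± 0.14), and Asph, whose gene also encodes junctin (0.40 and 0.57 ± 0.14). For both genes another probe set had the opposite sign in both fits. The pump gene Atp2a2 (-0.09 and -0.15) and its inhibitor gene Pln (0.01 and 0.00) did not pass, and both were near 0. Atp2a2 turned positive under quantile normalization, and each changed sign when 1 array was left out. Cacna1g, the T-type calcium channel Cav3.1 of pacemaker and fetal muscle cells, had 370.5, 144 and 178 at E13.5, against 36.2, 65.4 and 47.2 at E12.5. All 3 E13.5 values lay above all 3 at E12.5, array 2 included. The log2 difference was 1.81 ± 0.36 with all 6 arrays (adjusted p = 0.147) and 1.98 ± 0.40 without E12.5 array 2 (adjusted p = 0.00849), with an unadjusted p of 2.01e-05 in the 6-array fit.

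Other muscle cell genes were called in small numbers, beside 3.06% of all genes called higher and 1.36% called lower. At the Z-disc and M-band, Fhl2, a LIM protein (8052, 5531 and 6192 at E13.5, against 3754, 6146 and 3457 at E12.5; 0.59 and 0.85 ± 0.18, adjusted p = 0.00975), and Trim63, the ubiquitin ligase MuRF1 (0.59 and 0.81 ± 0.19, adjusted p = 0.0203), were higher among 21 measured genes (of 26). At the intercalated disc, which joins muscle cells end to end, Pkp4 (0.35 and 0.51 ± 0.12) and vinculin, Vcl (0.25 and 0.35 ± 0.10), were higher among 17 measured (of 18). The repolarizing potassium channel gene Kcnq1 was higher (0.52 and 0.83 ± 0.24, adjusted p = 0.0499) among 19 ion channel and connexin genes (of 24). The connexin 43 gene Gja1 had 9421, 8733 and 9105 at E13.5, against 8486, 8613 and 9186 at E12.5 (0.05 ± 0.16 and 0.04). Of 32 measured cardiac transcription factors (of 33), Tbx20 and Mef2d (0.32 and 0.47 ± 0.12) were called, with a list median of -0.01 with all arrays and -0.01 without E12.5 array 2.

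Receptors for hormones included 3 nuclear receptor genes, all higher. Nr3c2, the mineralocorticoid receptor, had 252, 158 and 233 at E13.5, against 53.5, 211 and 22.8 at E12.5, with E12.5 arrays 1 and 3 lowest (1.40 ± 0.39 with all 6 arrays (adjusted p = 0.179) and 2.10 ± 0.33 without E12.5 array 2 (adjusted p = 0.00206)). Nr3c1, the glucocorticoid receptor, had 1389.8, 1256 and 1591 at E13.5, against 897, 1360.3 and 704 at E12.5 in the same order (0.56 ± 0.16 with all 6 arrays (adjusted p = 0.187) and 0.81 ± 0.15 without E12.5 array 2 (adjusted p = 0.00425)). Thra, thyroid hormone receptor alpha, had 3959, 3344 and 2929.5 at E13.5, against 2226, 2624 and 1926 at E12.5, with no overlap between ages (0.59 ± 0.15 with all 6 arrays (adjusted p = 0.179) and 0.70 ± 0.16 without E12.5 array 2 (adjusted p = 0.0151)). These were 3 of 16 measured members (of 25), with 0 called lower (3.06% of all genes were called higher and 1.36% lower). The list median was 0.05 with all arrays and 0.10 without E12.5 array 2.

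Fetal growth genes leaned lower. Cdkn1c, the growth-restraining cyclin kinase inhibitor p57, had 6361, 9996 and 7636 at E13.5, against 11917, 8406 and 14550.4 at E12.5, with E12.5 arrays 1 and 3 highest (-0.53 ± 0.18 with all 6 arrays (adjusted p = 0.247) and -0.74 ± 0.19 without E12.5 array 2 (adjusted p = 0.0254)). The RNA-binding protein genes Igf2bp1 (864, 1504 and 1083 at E13.5, against 2055, 1283 and 1974 at E12.5; -0.62 and -0.84 ± 0.23, adjusted p = 0.0421) and Igf2bp3 (2227, 2119.7 and 2268 at E13.5, against 2823, 2351 and 3156 at E12.5; -0.32 and -0.43 ± 0.12, adjusted p = 0.0356), which bind fetal growth messages, were lower, Igf2bp3 with no overlap between ages. Igfbp3, a binding protein of insulin-like growth factors, was higher, with 1754, 1358 and 1875 at E13.5, against 413, 1736 and 412 at E12.5 (1.28 ± 0.36 with all 6 arrays (adjusted p = 0.179) and 1.95 ± 0.30 without E12.5 array 2 (adjusted p = 0.00164)). In all, 16 of 20 measured members (of 26) had a negative difference with 6 arrays, beside 6862 of all 12983 genes. Of the 20, 1 was called higher and 3 lower (3.06% and 1.36% of all genes). The median was -0.18 with all arrays and -0.27 without E12.5 array 2. Igf2 itself was not called (12350.3, 11248 and 10536 at E13.5, against 12605, 11403 and 15314 at E12.5; -0.20 ± 0.15 and -0.29).

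Cell cycle genes differed little. Of all genes, 3.06% were called higher and 1.36% lower. At an unadjusted p below 0.05 in the 6-array limma fit, the shares were 7.64% and 6.39%. Of 34 measured DNA replication genes (of 36) and 35 mitosis genes (of 36), limma called 0 in either fit, with 0 higher and 1 lower for replication and 1 higher and 0 lower for mitosis at an unadjusted p below 0.05. Their medians were -0.04 and -0.02 with 6 arrays, and -0.04 and -0.02 without E12.5 array 2. The same lists had medians of -0.27 and -0.32 in atria, where 9 and 19 genes were lower at an unadjusted p below 0.05 (6.28% of all genes). The atrial arrays were uneven. The mean log2 level of the mitosis list was 0.02, -0.36 and 0.12 on E13.5 atrial arrays, against 0.68, 0.02 and -0.03 at E12.5. For replication it was 0.10, -0.27 and 0.16, against 0.47, 0.16 and 0.01. In both lists E12.5 atrial array 1 was the highest and E13.5 atrial array 2 the lowest. The growth-arrest genes Tob1 (2485, 2292 and 2364 at E13.5, against 1373, 2297 and 1204 at E12.5; 0.60 and 0.88 ± 0.14, adjusted p = 0.00206) and Btg1 (0.38 and 0.56 ± 0.13, adjusted p = 0.0184), both antiproliferative, were called higher among 29 measured genes of G1 control (of 32), and Cdkn1c lower. Ccnd1, cyclin D1, had 2824, 2872 and 2637 at E13.5, against 3090.0, 2813 and 3119 at E12.5 (-0.11 ± 0.10 and -0.16).

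Signalling lists had few calls. Of all genes, 3.06% were called higher and 1.36% lower. At an unadjusted p below 0.05 in the 6-array limma fit, the shares were 7.64% and 6.39%. In the Notch pathway, Nrarp, a target and feedback inhibitor of Notch, had 2322, 1271 and 1959.7 at E13.5, against 888, 1432 and 913 at E12.5 (0.76 ± 0.22 with all 6 arrays (adjusted p = 0.183) and 0.98 ± 0.23 without E12.5 array 2 (adjusted p = 0.0184)) and was the only called member of 21 measured (of 22). Pdgfb, the ligand by which endothelium recruits pericytes, was higher (797, 508 and 644 at E13.5, against 339, 538 and 237 at E12.5; 0.83 and 1.13 ± 0.29, adjusted p = 0.0292), as was its receptor gene Pdgfrb. Smad1, which carries BMP signals to the nucleus, had 1406, 1319.7 and 1346 at E13.5, against 1065, 1218 and 968 at E12.5, with no overlap between ages (0.33 ± 0.10 with all arrays; 0.41 ± 0.10 without E12.5 array 2, adjusted p = 0.0227). Of 29 Wnt pathway genes (of 34) Dkk3 alone was called, and none of 31 cushion, valve and outflow genes (of 32) or 14 retinoic acid pathway genes (of 20) was, although 2 higher and 2 lower, and 0 higher and 3 lower, had an unadjusted p below 0.05 in the 6-array limma fit. The stress and growth gene Ier3 was called higher among 25 immediate early and heat shock genes (of 26; 1615, 1239 and 1457 at E13.5, against 661, 1255 and 697 at E12.5; 0.76 and 1.06 ± 0.21, adjusted p = 0.007).

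Of the genes with the largest positive differences, several belong to no list. Cd109, a surface protein that binds TGF-beta, had 337, 216 and 262 at E13.5, against 17.3, 276 and 15.8 at E12.5, so that E12.5 arrays 1 and 3 were near the bottom of the range (2.04 ± 0.62 with all 6 arrays (adjusted p = 0.198) and 3.09 ± 0.56 without E12.5 array 2 (adjusted p = 0.00374)). Gprc5b, an orphan receptor, had 294, 190.2 and 197 at E13.5, against 23.9, 157 and 27.5 at E12.5, with no overlap (1.81 ± 0.44 with all 6 arrays (adjusted p = 0.179) and 2.49 ± 0.41 without E12.5 array 2 (adjusted p = 0.00259)), while its other probe set differed by -0.30 with 6 arrays. Hlx, a homeobox factor known from liver and gut mesenchyme, had 234, 185 and 245 at E13.5, against 60.6, 152 and 24.6 at E12.5, and Fstl3, a secreted inhibitor of activin, 299.9, 284 and 331 at E13.5, against 77.4, 283 and 58.4 at E12.5, both without overlap (Hlx 1.54 and 2.06 ± 0.44, Fstl3 1.32 and 1.93 ± 0.34). For Fstl3 the E13.5 minimum and E12.5 array 2 were close to equal. Aspn, the matrix protein asporin (1.97 and 2.86 ± 0.79), Aoc3, an amine oxidase of vessel walls (2.09 and 2.78 ± 0.61), and Ptgds, prostaglandin D synthase (1.81 and 2.59 ± 0.65), were also among the 15 largest, as was Ushbp1 (1.18 and 1.84 ± 0.53).

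Among the largest negative differences outside blood, Foxh1, a nodal pathway factor, had 93.3, 105 and 109 at E13.5, against 437, 93.9 and 827 at E12.5 (-1.55 ± 0.65 with all 6 arrays (adjusted p = 0.312) and -2.37 ± 0.65 without E12.5 array 2 (adjusted p = 0.0378)). Col2a1, the cartilage collagen that valve cushions also express, had 148, 823 and 478 at E13.5, against 1522, 321 and 2237 at E12.5 (-1.37 ± 0.63 with all 6 arrays (adjusted p = 0.361) and -2.19 ± 0.63 without E12.5 array 2 (adjusted p = 0.0467)), with wide overlap among the E13.5 arrays and E12.5 array 2. Slc7a14, a cationic amino acid carrier family member, had 8.7, 14.9 and 9.8 at E13.5, against 122, 17.6 and 76.5 at E12.5, low on all 6 ventricular arrays, without overlap (-1.45 and -2.02 ± 0.58, adjusted p = 0.047). The ages were kept apart only by 14.9 against 17.6, near the 17 added to each value. All 6 values of Slc7a14 lay below the filter level of 171.8, so that it entered the test through other groups. In atria its means were higher, 454 at E13.5 and 422 at E12.5. Of the 110 named genes, 54 had more than 1 tested probe set, and a probe set had the opposite sign to the brightest in 11 of them with 6 arrays and in 8 without E12.5 array 2. Gprc5b, Tbx20, Camk2d, Asph, Mef2d, Atp2a2, Gja1 and Pln did so in both fits, and Sln, Igf2 and Ccnd1 with 6 arrays.

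The later ages place these values in a course. The arrays titled E16.5 have a deposited description that gives day 15.5, and the age in the title is used here. Fabp4 had mean intensities of 6124, 9124 and 11725 at E14.5, E16.5 and E18.5, and Ckm of 8593, 12955 and 14333, so that E12.5 arrays 1 and 3 lay below every later mean. Kel had means of 260.1, 134 and 122, far below E12.5 arrays 1 and 3. Cdkn1c went on to lower means of 7213, 4222 and 2661. Col1a1 stood at 3853, 4997 and 5339. Over the next day in the ventricle, E14.5 against E13.5, limma called 34 probe sets (0.125%), 33 higher (0.121%) and 1 lower (0.00367%). That comparison shares the 3 E13.5 arrays, and its count ran from 1 to 415 when 1 array was left out. The log2 differences of E14.5 minus E13.5 were 0.20 ± 0.76 for Fabp4, 0.68 ± 0.73 for Kel and -0.78 ± 0.36 for Cacna1g.

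**Figure D5:**
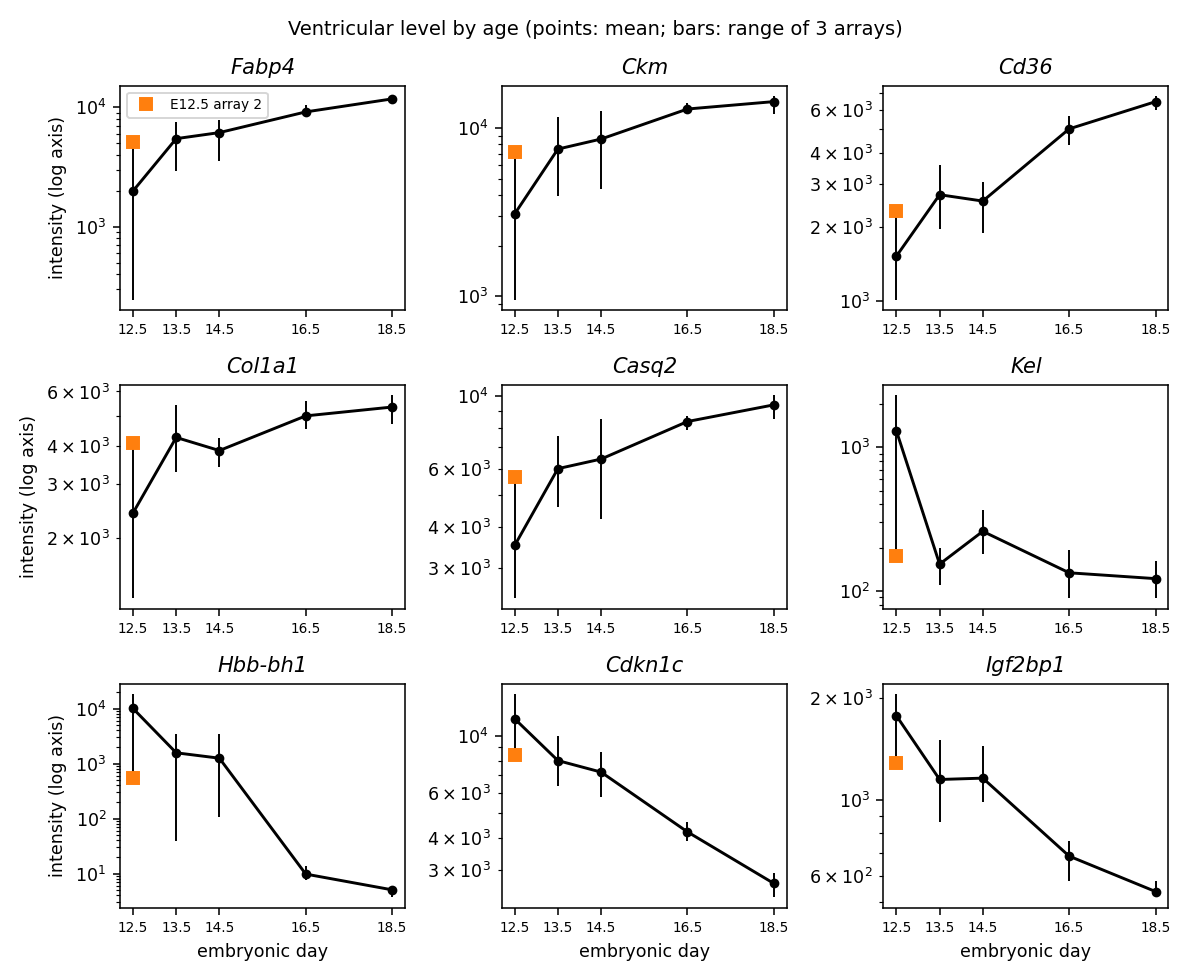
Ventricular intensity of 9 genes by embryonic day (log axis), with points at the mean and bars over the range of 3 arrays; the orange square is E12.5 array 2. For Fabp4, Ckm, Cd36, Col1a1 and Casq2 the square lies near the E13.5 mean, at the top of the E12.5 range, and for Kel, Hbb-bh1, Cdkn1c and Igf2bp1 at the bottom of it. Days are those of the titles, and the arrays titled E16.5 are described as day 15.5.

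Whether the day's change differed between chambers was tested as an interaction over 12 arrays. Limma called 0 of 27256 probe sets (0%), with 2326 (8.53%) at an unadjusted p below 0.05. Without E12.5 ventricular array 2 it again called 0, with 3483 at an unadjusted p below 0.05. Leaving out E12.5 atrial array 3 gave 59 calls, 41 higher and 18 lower. The atrial comparison also had 0 calls with 6 arrays (3236, or 11.9%, at an unadjusted p below 0.05), but 1576 (5.78%) without that array, 803 higher (2.95%) and 773 lower (2.84%). The ventricular minus atrial change with all 12 arrays was 1.99 ± 1.07 for Fabp4, 1.79 ± 0.51 for Cacna1g, -0.10 ± 1.04 for Kel and -0.52 ± 0.26 for Cdkn1c. Without E12.5 ventricular array 2 it was 3.24 ± 0.93 for Fabp4, 1.96 ± 0.54 for Cacna1g, -1.19 ± 0.94 for Kel and -0.74 ± 0.25 for Cdkn1c. The atrial differences themselves were 0.46 for Fabp4, 0.02 for Cacna1g, -2.27 for Kel, -0.00 for Cdkn1c, 0.83 for Col1a1 and 0.90 for Ckm. For the ventricular muscle genes Myl2 and Myh7 they were -1.45 and -1.44. On atrial arrays Myl2 ran from 1150 to 4117 at E13.5 and from 2360 to 12701 at E12.5. Myh7 ran from 970 to 2362 and from 1684.5 to 10867. How much ventricular muscle the atrial samples held was not tested, which limits the atrial and interaction values.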

How the data were processed

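Total RNA of the 6 ventricular samples was measured on Affymetrix mouse arrays, within a series of 36 arrays in 12 groups of 3. The deposited values are intensities on a linear scale, already brought by the authors to a 2% trimmed mean of 500.0 on each of the 6 arrays, as the values show. How the authors summarized and scaled them, and whether arrays were processed in batches, is not stated by any source used here. Intensities carry no counts, so the number of arrays limits the precision. Groups were read from titles and source fields. For the arrays titled E16.5 the description gives day 15.5 instead.

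From these values, log2(intensity + 17) was computed. Of 45101 probe sets, 64 controls were left out, and 27256 entered the test because 3 or more arrays had intensities over 171.8, the overall median. R 4.3.3 with limma 3.58.1 fitted 12 group means to 36 arrays (24 residual and 5.68 prior degrees of freedom, intensity trend, two-sided), with Benjamini-Hochberg adjustment over every tested probe set. Probe sets were named from the platform annotation: 34945 had 1 gene symbol and 10092 had none or several. A gene was measured by its tested probe set with the highest mean over 36 arrays. The test was checked on simulated data.

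The members and the 43 gene lists (1052 entries, 952 genes, of which 818 were measured) were chosen with earlier results of these data known. Named genes were to be the 15 largest called differences in each direction, up to 4 called members of each list and a fixed set of heart genes. In the main fit with 6 arrays no gene was called. This rule was therefore applied to the fit without E12.5 array 2, a choice made after seeing the data. The 15 largest in each direction were taken from called genes whose ages did not overlap on the 5 arrays left. A few further list members are given beside them. Promoters are RefSeq sequences of GRCm38.p6.

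Replicate numbers are shared by both ages. Same-numbered arrays did not deviate together from their group means (r = -0.11, -0.14 and 0.04 for numbers 1, 2 and 3), so the numbers were not used as pairs. Alternatives were another normalization, pseudocount, filter, set of arrays, moderation, array weights, replicate block, averaging of probe sets by gene, and dropping each array in turn.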

Additional observations from a re-analysis of the deposited data

How the results depend on the processing

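For ventricles at E13.5 against E12.5 with 6 arrays, limma called 0 probe sets under quantile normalization, median centring, pseudocounts of 1 and 68, the strict filter (583.3), no intensity trend, only the compared arrays and the mean of probe sets, 1 with no filter and 2508 with array weights. Leaving out 1 array gave from 0 to 1003 calls. With the replicate number as a block 0 were called (2961 at an unadjusted p below 0.05), and the numbers are not shown to pair the arrays. The difference between chambers had 1 call with no filter, 261 with array weights and from 0 to 59 with 1 array left out. The atrial comparison had 1795 with array weights and from 0 to 1576 with 1 array left out. E14.5 against E13.5 in ventricles, 34 calls, had 71 with a pseudocount of 68, 1 with the strict filter, 119 with no intensity trend, 22 with array weights, 18 with the mean of probe sets, 0 with only the compared arrays (limma) and 0 with the replicate block, and from 1 to 415 with 1 array left out. Without E12.5 array 2, the 1003 calls became 1828 with array weights and 498 with the mean of probe sets, which tests fewer values, and from 14 to 913 with a second array left out. The cause was not tested for the other settings.

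Of the 84 named genes called without E12.5 array 2, 27 lost the call with only the compared arrays, 18 with the mean of probe sets, 18 with no intensity trend, 17 with no filter, 13 with the replicate block, 9 with median centring and at most 6 under the other normalization, pseudocount and filter settings. With a second array left out the number lost was 83 without E12.5 array 3, which leaves 1 array at E12.5, 64 without E13.5 array 1, 52 without E13.5 array 3, 37 without E12.5 array 1 and 11 without E13.5 array 2. Some uncalled genes with differences near 0 changed sign: Myl2 (0.0362 under quantile normalization), Myh6 (0.0264 under quantile normalization and 0.00375 under median centring), Gja5 (-0.0500 with array weights), Atp2a2 (0.0160 under quantile normalization) and Sln (0.00346 with the mean of probe sets). With 1 array left out their ranges were -0.177 to 0.0281 for Myl2, -0.0643 to 0.0620 for Myh6, -0.0169 to 0.0969 for Irx4, -0.0935 to 0.295 for Gja5, -0.151 to 0.0239 for Atp2a2, -1.34 to 0.402 for Sln, -0.0634 to 0.0911 for Pln and -0.0200 to 0.160 for Wt1. No source used here gives a scan or hybridization batch, so within-batch values cannot be had.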
